A study of Lactuca sativa with 6 samples.

Results

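Auxin, the growth hormone indole-3-acetic acid, is supplied to plant cells by several steps that are regulated separately. Work in Arabidopsis showed that YUCCA flavin-dependent monooxygenases make it from indole-3-pyruvate, that GH3 enzymes remove the free hormone by joining it to amino acids, that PIN efflux carriers, which PINOID kinases phosphorylate, move it from cell to cell, and that PIN-LIKES (PILS) carriers hold it back at the endoplasmic reticulum. Young leaves are known as a source of auxin, and GH3 and SAUR genes are among those that auxin itself switches on early. Here 5 of the 39253 assembled clusters of lettuce (*Lactuca sativa*) transcripts are described, which stand for these steps: YUCCA10 (Cluster-14797.0) and YUCCA5 (Cluster-8784.0) for synthesis, GH3.1 (Cluster-18508.0) for conjugation, and PINOID2 (Cluster-6384.0) and PILS7 (Cluster-4711.0) for transport.

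The 5 clusters were chosen by differences in expression that the study listed in these same libraries. YUCCA10, YUCCA5 and PINOID2 were listed for LsCv versus LsSq, PILS7 for both comparisons with LsCK, and GH3.1 for LsCv versus LsCK, where it was also measured by qRT-PCR. Of the 15 values that 5 clusters give in 3 comparisons, 6 therefore belong to a comparison that chose the cluster and are given as a description without a test, and the other 9 were tested. The latter share libraries with the former, and the comparisons with LsCK share their control.

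Leaves were taken 4 days after treatment from 3 groups of seedlings grown in boxes of pumice, 10 to a box. LsCK plants were untreated and received 500 mL of Hoagland solution, a mineral nutrient solution. LsCv plants received the same volume with an extract of the green microalga *Chlorella vulgaris*, and LsSq plants with an extract of the green microalga *Scenedesmus quadricauda*, in both cases at 1 mg of organic carbon per litre. Each group has 2 RNA-seq libraries. Which box a library came from was not given, so p-values measure the spread between these libraries, which may be technical. The count table identifies clusters by number only, and leaf marker genes were not analysed here.

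The libraries held 26408716 to 35184764 counts each. Levels are given in CPM, the usual count per unit of library size, scaled between libraries by the TMM method. A count of 3 was worth 0.0857 to 0.111 CPM, depending on the library. LsCK replicate 2 stood apart in that 1943 clusters were counted there and nowhere else, against 100 to 248 in each other library. Over the 28157 clusters with enough counts to be tested, Spearman's rho between the replicates was 0.926 in LsCK, 0.942 in LsCv and 0.975 in LsSq. LsCv replicate 1 was the highest or the lowest of the 6 libraries in 49.7% of the tested clusters and LsCK replicate 2 in 39.7%. LsCK replicate 1 had a higher rho with each of the 4 treated libraries (0.946 to 0.960) than with the other control, LsCK replicate 2 had its highest with LsSq replicate 2 (0.960), and LsCv replicate 1 its highest with LsCK replicate 1 (0.952), so that the LsCK and LsCv libraries did not group by treatment. The cluster of the study's qRT-PCR reference gene, a ribosomal RNA small subunit methyltransferase (Cluster-15809.13020), varied 1.30-fold over the 6 libraries, whereas each of the 5 auxin clusters varied 5.88-fold or more. The 5 were chosen for differences between groups in these libraries, so nothing is read from this contrast.

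Both synthesis clusters were highest in the *C. vulgaris* group and low in the *S. quadricauda* group, and LsCK did not hold a fixed place between them. YUCCA10 stood at 15.4 CPM in LsCv replicate 1 and 4.12 CPM in LsCv replicate 2. In LsSq it stood at 2.25 and 1.53 CPM. The LsCK libraries gave 7.29 and 1.63 CPM, so that 1 control lay among the LsCv libraries and the other among the LsSq libraries. The group means were 9.76 ± 7.97 CPM in LsCv, 4.46 ± 4.00 in LsCK and 1.89 ± 0.51 in LsSq (SD, n = 2). Only LsCv and LsSq lay apart without overlap.

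YUCCA5, a second monooxygenase of the same step, repeated this order at 5.58 and 3.03 CPM in LsCv and 0.912 and 0.647 CPM in LsSq. Its LsCK libraries gave 2.83 and 0.382 CPM, the latter from 11 counts (exact Poisson 95% interval 5.49 to 19.7, counting error only). Both LsCv libraries lay above both LsCK libraries, but LsCv replicate 2 and LsCK replicate 1 differed little, with 91 and 99 counts. The means were 4.30 ± 1.80 CPM in LsCv, 1.61 ± 1.73 in LsCK and 0.779 ± 0.187 in LsSq (SD, n = 2). These are levels in whole leaves, in which fewer cells of a type and less RNA per cell cannot be told apart.

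GH3.1, which inactivates auxin by conjugation, did not follow the groups. It stood at 1.99 CPM in LsCv replicate 1, the lowest of all libraries, and at 13.2 CPM in LsCv replicate 2, the second highest. The LsCK libraries were nearly as far from each other, at 12.9 and 2.99 CPM, and only the LsSq libraries were alike, at 15.7 and 11.8 CPM. The means were 7.60 ± 7.92 CPM in LsCv, 7.92 ± 6.99 in LsCK and 13.7 ± 2.72 in LsSq (SD, n = 2). The replicates differed 6.62-fold in LsCv and 4.31-fold in LsCK, and the libraries of any 2 groups overlapped.

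PINOID2, a kinase of the family that directs PIN efflux carriers, had all 3 groups apart from each other, as did 11.1% of all tested clusters. In 7.08% LsCK also lay between the extracts, as it did here. It was lowest in LsCv, at 2.36 and 4.39 CPM. The LsCK libraries followed at 5.63 and 9.37 CPM and the LsSq libraries were highest, at 13.9 and 10.2 CPM. The means were 3.38 ± 1.43 CPM in LsCv, 7.50 ± 2.65 in LsCK and 12.1 ± 2.59 in LsSq (SD, n = 2), the opposite order to that of the YUCCA clusters.

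PILS7, the intracellular auxin carrier, differed more between replicates than between groups. Replicate 1 gave 23.5 CPM in LsCK, 11.5 in LsCv and 4.17 in LsSq. The corresponding values of replicate 2 were 0.312, 0.864 and 0.442 CPM. The higher replicate exceeded the lower 75.2-fold in LsCK, 13.3-fold in LsCv and 9.42-fold in LsSq, and every replicate 1 library lay above every replicate 2 library. The count of 822 in LsCK replicate 1 was the only value of the 5 clusters for which RSEM gave a fractional estimate, and that in LsCK replicate 2 was 9 (exact Poisson 95% interval 4.12 to 17.1). A difference of this size between replicates was rare, being reached by 0.181% of the tested clusters in LsCK, 1.15% in LsCv and 0.852% in LsSq. Replicate 1 exceeded replicate 2 by at least the smallest of these 3 differences in every group in 24 tested clusters, PILS7 included.

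**Figure D1:**
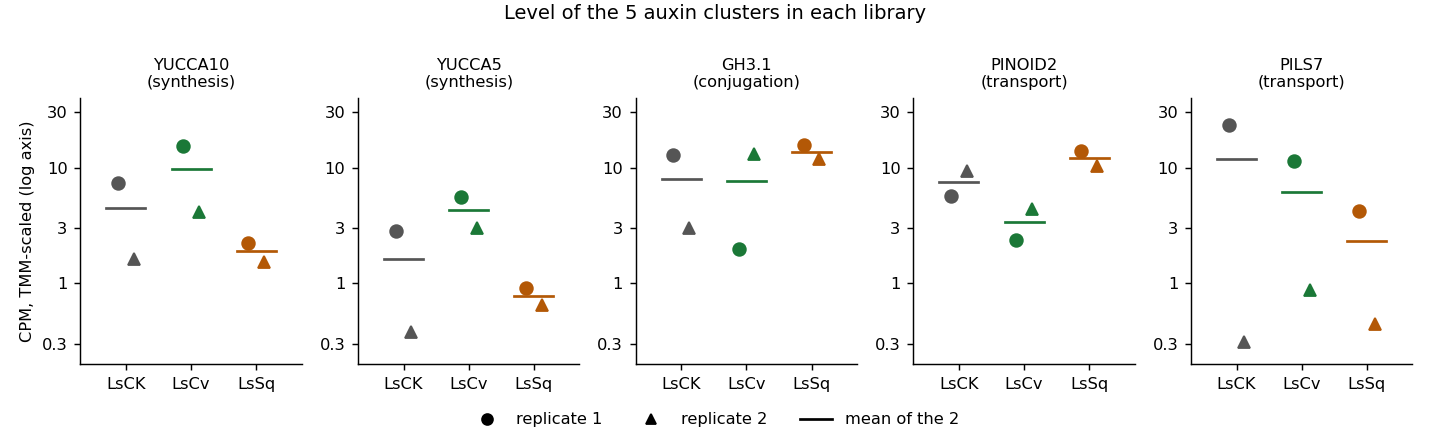
CPM (vertical, log axis) of each of the 5 clusters in the 6 libraries, with circles for replicate 1, triangles for replicate 2 and a line for the mean of each group. PINOID2 separates the 3 groups, YUCCA10 and YUCCA5 separate LsCv from LsSq, and PILS7 separates the replicates, with 4.17 CPM or more in each replicate 1 and 0.864 CPM or less in each replicate 2.

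The comparison LsCv versus LsSq asks whether the extracts differ from each other. It chose YUCCA10, YUCCA5 and PINOID2, whose log2 fold changes of 2.37 (standard error 0.89), 2.46 (0.94) and -1.83 (0.47) are a description. The libraries of the groups lay apart in these 3 of the 5 clusters, as they did in 55.3% of all tested clusters, and nothing is read from that count. GH3.1 and PILS7 were not chosen on this comparison. The log2 fold change was -0.85 (standard error 0.94) for GH3.1 and 1.42 (1.85) for PILS7, and edgeR's quasi-likelihood test gave adjusted p of 0.673 and 0.722. Their unadjusted p were above 0.05, which 16.0% of all tested clusters fell below. Each change is smaller than its standard error. Without LsCv replicate 1 the log2 fold change of GH3.1 was -0.02 and that of PILS7 was -1.37, and without LsCv replicate 2 they were -2.78 and 2.31.

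In LsCv versus LsCK, the effect of the *C. vulgaris* extract, none of the 3 clusters that could be tested passed. The log2 fold change was 1.12 (standard error 0.85) for YUCCA10 and 1.41 (0.90) for YUCCA5, and the same edgeR test gave adjusted p of 0.699 and 0.657. PINOID2 was at -1.15 (standard error 0.46), with an adjusted p of 0.561 in edgeR's test (unadjusted p = 0.0428). It was lower in 2 of 2 LsCv libraries than in either control. An unadjusted p under 0.05 was found for 8.73% of all tested clusters in this comparison, and the libraries lay apart in 36.5%, as they did for YUCCA5 and PINOID2. The chosen clusters GH3.1 and PILS7 gave log2 fold changes of -0.06 (standard error 0.94) and -0.95 (1.81).

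In LsSq versus LsCK, the effect of the *S. quadricauda* extract, 4 clusters could be tested and 0 passed edgeR's test, also at an unadjusted p under 0.05, which 4.65% of all tested clusters reached. The log2 fold changes were -1.24 (standard error 0.86) for YUCCA10, -1.05 (0.92) for YUCCA5, 0.79 (0.94) for GH3.1 and 0.68 (0.45) for PINOID2, and edgeR's adjusted p lay between 0.962 and 0.964. PINOID2 was higher in 2 of 2 LsSq libraries than in either control, and libraries lay apart in this way, upwards or downwards, in 38.8% of all tested clusters. For PILS7, chosen on this comparison, it was -2.37 (1.90).

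The share of all tested clusters with an adjusted p of 0.05 or less in edgeR's fit was 0% in each comparison, with smallest adjusted p of 0.168 in LsCv versus LsCK, 0.962 in LsSq versus LsCK and 0.158 in LsCv versus LsSq. DESeq2, the tool of the study's methods, run on the libraries of the groups compared, called 0.713% of the clusters it tested in LsCv versus LsCK and 0.616% in LsSq versus LsCK, with 0 of the 5 among them. In LsCv versus LsSq it called 10.5%. YUCCA10, YUCCA5 and PINOID2 are among these. They were chosen on this comparison with this tool, and nothing is read from it.

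**Figure D2:**
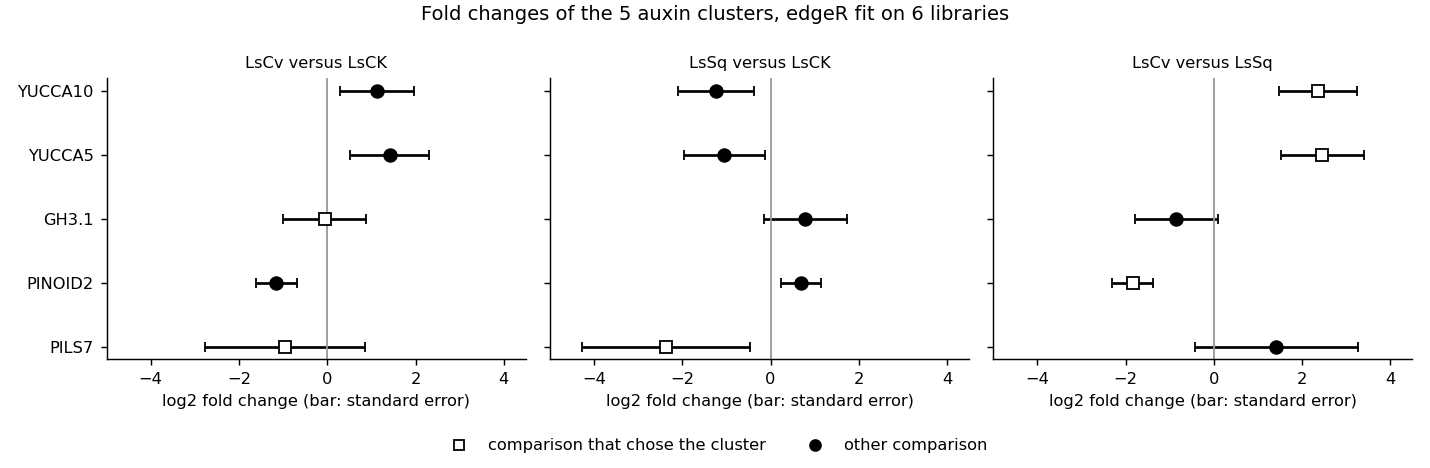
Log2 fold change (horizontal) of the 5 clusters in the 3 comparisons, with bars for 1 standard error of the edgeR fit on 6 libraries. Open squares mark the comparison that chose a cluster and filled circles the others. PILS7 has the widest bars (1.81 to 1.90) and PINOID2 the narrowest (0.45 to 0.47).

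The control library decided the direction of several values. Without LsCK replicate 1, PILS7 turned from lower to higher after either extract, with log2 fold changes of 4.28 in LsCv versus LsCK and 2.82 in LsSq versus LsCK. Without LsCK replicate 2 they were -1.94 and -3.35. GH3.1 in LsCv versus LsCK moved from -0.06 to 1.36 without LsCK replicate 1 and to -0.77 without LsCK replicate 2. It was 0.76 without LsCv replicate 1 and -2.0 without LsCv replicate 2. The YUCCA clusters in LsSq versus LsCK also turned, to 0.17 for YUCCA10 and 0.98 for YUCCA5, without LsCK replicate 1. In LsCv versus LsCK they reached 2.57 and 3.48 without that library. YUCCA10 in LsCv versus LsCK was -0.09 without LsCv replicate 1. The groups of PINOID2 do not overlap, so that no single library could turn its direction. Its values with each library left out in turn lay between -1.67 and -0.75 in LsCv versus LsCK, between 0.32 and 1.10 in LsSq versus LsCK, and between -2.35 and -1.42 in LsCv versus LsSq. In this last comparison, where the groups of YUCCA10 and YUCCA5 do not overlap either, theirs ranged from 1.16 to 3.02 and from 1.99 to 2.83.

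**Figure D3:**
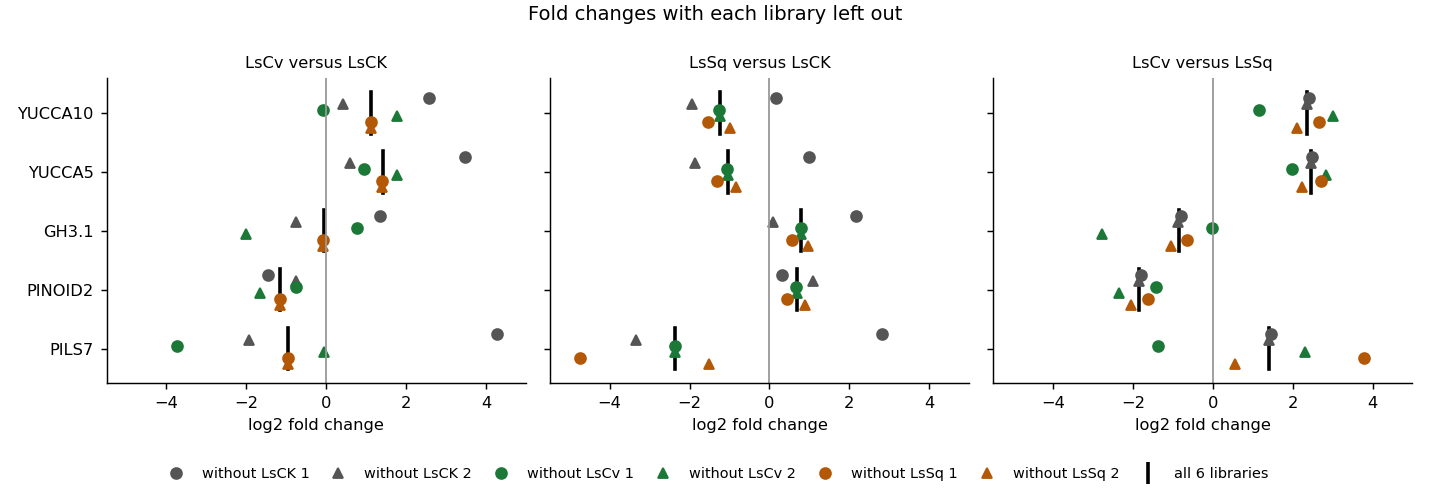
Log2 fold change (horizontal) of each cluster in the 3 comparisons with all 6 libraries (black line) and with each library left out in turn (symbols, coloured by the group of the library left out). PILS7 lies on both sides of 0 in each comparison, from -3.75 to 4.28 in LsCv versus LsCK, and from -1.37 to 3.78 in LsCv versus LsSq. PINOID2, whose groups do not overlap, could not change side.

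Across the 6 libraries YUCCA10 and YUCCA5 varied together, with a Pearson's r of their log2 CPM of 0.94 and a Spearman's rho of 0.89. Such an r is not particular to this pair. Of the 28157 tested clusters, 609 reached it with YUCCA10, YUCCA5 included, and 902 with YUCCA5, YUCCA10 included. Without the 2 libraries farthest from the median of YUCCA10, r between the YUCCA clusters was 0.96. PINOID2 ran against both, with an r of -0.89 to YUCCA10 and -0.88 to YUCCA5 (rho -0.77 for each). The former was -0.76 without the 2 libraries farthest from the median of YUCCA10, and the latter -0.91 without the 2 farthest from that of YUCCA5. These 3 clusters were chosen for differences between LsCv and LsSq, which by itself gives such relations, and no p is attached to them. PILS7 had an r of 0.80 to YUCCA10 and 0.71 to YUCCA5 (rho 0.83 and 0.71). The former fell to 0.34 without the 2 libraries farthest from the median of YUCCA10, and the latter to 0.44 without the 2 farthest from that of YUCCA5. With a single library left out they stayed at 0.74 to 0.88 and 0.57 to 0.88. For GH3.1, r was -0.36 to YUCCA10, -0.13 to YUCCA5, 0.50 to PINOID2 and 0.00 to PILS7 (rho -0.14, -0.03, 0.49 and 0.14), and with a library left out each of these took both signs. With a library left out, r between the YUCCA clusters stayed at 0.92 to 0.98. The relation of PINOID2 to PILS7 was weaker, with an r of -0.45 and a rho of -0.37. These are 10 pairs over the same 6 libraries, which share depth and scaling.

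Differences between replicates were not what the study listed, but they are not independent of the choice. Their size is part of the spread in the study's test, and their sign can bear on a listed difference from LsCK. For PILS7, the direction against LsCK turned when LsCK replicate 1 was left out. YUCCA10, YUCCA5 and PILS7 were higher in replicate 1 than in replicate 2 in 3 of 3 groups. Replicate 1 was higher in 3 of 3 groups in 17.6% of all tested clusters and replicate 2 in 17.4%. For YUCCA10 the log2 difference was 2.09 in LsCK, 1.88 in LsCv and 0.52 in LsSq, and for YUCCA5 it was 2.6, 0.86 and 0.44. PINOID2 was lower in replicate 1 in LsCK (-0.72) and LsCv (-0.87), against the YUCCA clusters, and higher in LsSq (0.44), with them. GH3.1 followed the YUCCA clusters in LsCK (2.07) and LsSq (0.40) and ran against them in LsCv (-2.67).

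Ratios of counts within a library depend neither on the scaling nor, between libraries, on transcript length. YUCCA10 had 2.58 and 4.27 times the counts of YUCCA5 in LsCK, 2.76 and 1.36 times in LsCv, and 2.46 and 2.37 times in LsSq, a 3.13-fold range while each cluster alone ranged 10.1-fold and 14.6-fold. The ratio of conjugation to synthesis, GH3.1 over YUCCA10, was 1.76 and 1.83 in LsCK, although each cluster differed over 4-fold between these libraries. In LsSq this ratio was 6.97 and 7.71. The LsCv libraries gave 0.129 and 3.20, below and above LsCK. Against YUCCA5 the GH3.1 ratio was 17.2 and 18.3 in LsSq, 4.55 and 7.82 in LsCK, and 0.358 and 4.36 in LsCv. Both ratios were thus higher in each LsSq library than in any other library, in part by choice, since the YUCCA clusters were listed for LsCv versus LsSq. Over YUCCA10, the lower 95% bounds in LsSq (5.41 and 5.64) lay above the upper bounds of LsCK (2.07 and 2.67). Over YUCCA5 the lower bounds in LsSq (11.7 and 11.5) lay below the upper bound of LsCK replicate 2 (16.2). The intervals cover counting error within a library only, and with 2 libraries against 2 an exact permutation test cannot give a p under 0.333. PINOID2 over YUCCA10 was 6.19 and 6.69 in LsSq, close to the 5.75 of LsCK replicate 2. It was 0.772 in LsCK replicate 1, 0.154 in LsCv replicate 1 and 1.06 in LsCv replicate 2.

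**Figure D4:**
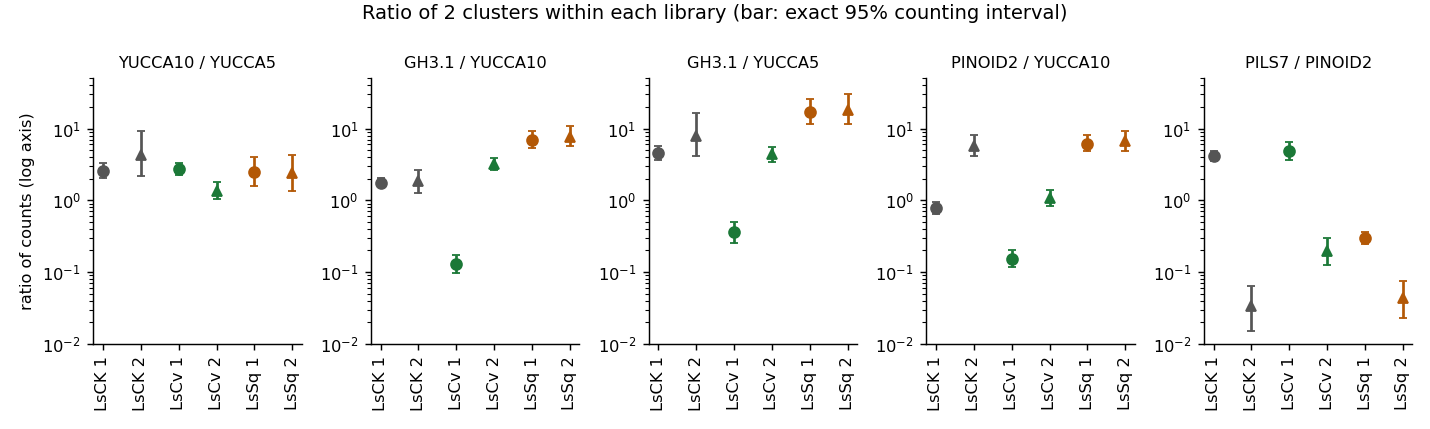
Ratio of the counts of 2 clusters (vertical, log axis) in each of the 6 libraries, with exact 95% intervals for counting error. YUCCA10 over YUCCA5 stays between 1.36 and 4.27, GH3.1 over either YUCCA cluster is highest in both LsSq libraries, and PILS7 over PINOID2 spans 0.0333 to 4.86.

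The study's lists name 7 more clusters by an auxin protein, all of them chosen on differences from LsCK in these libraries. They are the Aux/IAA repressors IAA27 (Cluster-8434.0) and IAA17 (Cluster-5788.0), an auxin response factor like ARF3 (Cluster-18086.1), the influx carrier LAX2 (Cluster-15809.12011), a further PIN-LIKES 7-like carrier (Cluster-15809.12940) and the SAUR growth genes SAUR71-like (Cluster-12293.0) and SAUR76 (Cluster-8848.0). In both comparisons with LsCK 5 of the 7 had negative and 2 positive log2 fold changes, with medians of -1.39 in LsCv and -1.03 in LsSq beside -0.03 and 0.00 over all tested clusters. Because these comparisons chose the 7, nothing is read from their signs or medians. The only comparison that did not choose them, LsCv versus LsSq, had 0 of 7 past an adjusted p of 0.05, and 0 of 7 at an unadjusted p under 0.05, by edgeR. The shares of all tested clusters were 0% and 16.0%. LsCK replicate 2 was the highest library in 5 of the 7 and the lowest in the other 2. Of all tested clusters it was the highest in 19.1% and the lowest in 20.6%. A choice on differences from LsCK by itself favours a control as the extreme library, and nothing is read from that count.

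YUCCA5 and both Aux/IAA repressors ranked the 6 libraries in exactly opposite orders (rho -1.0 for each), with an r of -0.93 to IAA27 and -0.92 to IAA17. Without LsCK replicate 2 and LsCv replicate 1, left out together after the values were seen, r was -0.96 and -0.91. YUCCA10 had an r of -0.88 and -0.81 to them (rho -0.89 for each). Both YUCCA clusters and both repressors were chosen on differences between groups in these libraries, which by itself can give such relations. How many of all tested clusters reach such values was not counted. IAA27 stood at 25.4 CPM in LsCK replicate 2, where YUCCA5 was lowest, and at 0.517 CPM in LsCv replicate 1, where YUCCA5 was highest. GH3.1 was instead like SAUR71-like, with an r of 0.87 and a rho of 0.66. SAUR71-like gave 6.23 and 1.35 CPM in LsCK, 2.95 and 13.8 in LsCv, and 9.57 and 9.60 in LsSq, so that both clusters were low in LsCK replicate 2 and LsCv replicate 1. Without both of these libraries r was 0.10, so that the likeness rested on them, while it was 0.88 without the former alone and 0.94 without the latter alone. The PIN-LIKES 7-like cluster did not share the pattern of PILS7. It gave 20.5 and 6.63 CPM in LsCK, 26.0 and 28 in LsCv and 27.6 and 19.5 in LsSq, with an r of 0.51 to PILS7.

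**Figure D5:**
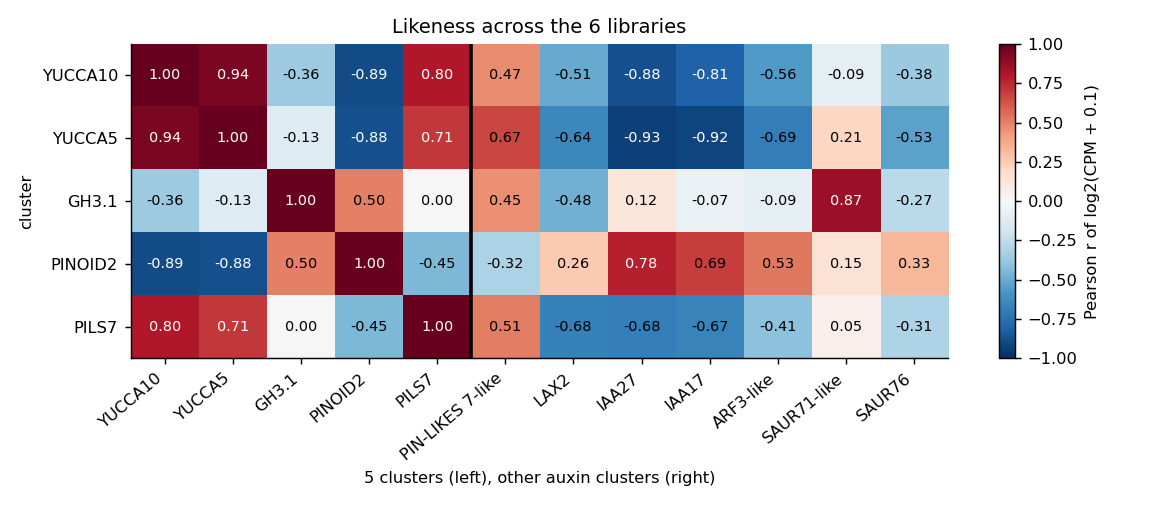
Pearson's r of log2(CPM + 0.1) over the 6 libraries between the 5 clusters (rows; left of the black line) and the 7 other auxin clusters (right), with red for positive and blue for negative values. YUCCA10 and YUCCA5 are positive to each other (0.94) and negative to PINOID2 (-0.89 and -0.88), and GH3.1 has its highest value with SAUR71-like (0.87).

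The study's lists give a lettuce description for, or name in a short list, 296 tested clusters. Among these, those most like each member were sought by Pearson's r over the 6 libraries. PINOID2 was most like the receptor kinase EMS1/MSP1 (Cluster-11176.0), with an r of 0.994 that 7 of all tested clusters reached, then EPF/EPFL epidermal patterning factor (0.95, reached by 547) and the cytokinin-activating enzyme LOG3 (0.94, reached by 705). All 3 were listed for the same comparison as PINOID2, LsCv versus LsSq, and with the same sign, which by itself makes them alike. Next to each other, YUCCA10 and YUCCA5 were most like the plant natriuretic peptide precursor EG45-like (Cluster-6996.0), with an r of 0.89 and 0.92, and inactive beta-amylase 9-like (0.85 and 0.89). Such values are not particular to EG45-like, since 1591 and 1264 of the 28157 tested clusters were at least as like YUCCA10 and YUCCA5. Ahead of SAUR71-like, GH3.1 was most like a hypothetical protein (Cluster-15809.1020, 0.91, reached by 161 tested clusters) and oligopeptide transporter 5-like (0.89, reached by 288). PILS7 was most like berberine bridge enzyme-like 8 (0.93, reached by 217). A hypothetical protein (Cluster-13941.0, 0.92, reached by 273) and DETOXIFICATION 40-like (0.92, reached by 275) followed. Clusters on the study's lists were chosen on differences between groups in these libraries, as GH3.1 and PILS7 were, which by itself favours such likeness.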

How the data were processed

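According to the study's methods, poly-A RNA of leaves was sequenced as paired reads, the clean reads of the libraries were assembled de novo with Trinity, transcripts were grouped by Corset, and RSEM counted reads per cluster. The authors deposited the resulting expected counts for 39253 clusters without normalization. RSEM divides reads that match several transcripts, and 11199 clusters hold a fractional count. Group and replicate came from the labels, and all 6 libraries were used. Expected counts were rounded and fitted in R 4.3.3 with edgeR 4.0.16 (filterByExpr, TMM, glmQLFit and glmQLFTest, 1 fit with a group factor), with Benjamini-Hochberg adjustment over the 28157 clusters tested and a threshold of 0.05. Log2 fold changes carry a prior count of 0.125. DESeq2 1.42.0 served as an alternative. Correlations used log2(CPM + 0.1) and are descriptions. The code was tested on simulated data. The precision is limited by 2 libraries per group, and intervals cover counting error alone, as no molecular identifiers were used. The plots were made in matplotlib 3.10.9.

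The 5 members, the 7 other auxin clusters and the reference gene were named, together with the 3 named clusters most like each member. Members, lists and tests were chosen with earlier results of these data known. Names are those of the study's lists, 1 of which was held in part. The assembly was not used here, so that no genome positions are given, and primer sequences are not reported here. The alternatives were other scalings (DESeq2's size factors, none, TMM on clusters counted in all libraries), other filters (none, a mean of at least 10 counts), robust estimation, DESeq2, the groups compared alone, a replicate block and each library left out. For correlations they were a pseudocount of 0.5, no scaling and each library left out. For the other auxin clusters, leaving out libraries was added after the data were seen.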

Additional observations from a re-analysis of the deposited data

Results flagged for a closer look

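PINOID2 lay on opposite sides of LsCK in the extracts, since both LsCv libraries were below both LsCK libraries and both LsSq libraries above them. It passed the adjusted threshold in neither comparison with LsCK, and libraries lay apart in 36.5% of all tested clusters in LsCv versus LsCK and in 38.8% in LsSq versus LsCK. All 3 groups lay apart with LsCK between the extracts in 7.08%. A choice on a difference between the extracts by itself favours a control between them, so nothing is read from the opposite sides. The difference between the extracts, a log2 fold change of -1.83 in LsCv versus LsSq, is the comparison on which the study listed this cluster, so the difference was not tested independently of the choice.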

How the results depend on the processing

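With all 6 libraries in the fit, 118 of 120 log2 fold changes of the 5 clusters kept their direction and their side of the threshold, and 27 of 30 with only the groups compared. GH3.1 in LsCv versus LsCK turned from -0.06 to 0.002 with DESeq2's size factors, and the other 4 values passed the threshold under DESeq2. The number of the 5 clusters past the threshold in LsCv versus LsSq, 0 in edgeR's fit, was 1 in DESeq2 with all 6 libraries and 3 in DESeq2 with the groups compared. These clusters were chosen on this comparison with this tool, so nothing is read from the counts. Of all clusters, edgeR called 0 of 28157 and DESeq2 1488 of 39234 with all 6 libraries. With the groups compared, DESeq2 called 10.5% of those it tested. With each library left out in turn, 8 of 90 values changed direction. The ranges were -0.09 to 2.57 for YUCCA10, -2.0 to 1.36 for GH3.1 and -3.75 to 4.28 for PILS7 in LsCv versus LsCK, -1.95 to 0.17 for YUCCA10, -1.86 to 0.98 for YUCCA5 and -4.74 to 2.82 for PILS7 in LsSq versus LsCK, and -1.37 to 3.78 for PILS7 in LsCv versus LsSq. The cause was not tested. A group left with 1 library was assumed to vary like the others. The median absolute r between the 5 clusters was 0.61, and 0.55 to 0.75 with a library left out.

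With the replicate number as a replicate block, 0 of the 5 clusters passed in any comparison. The same holds for all tested clusters, of which 0 of 28157 passed in each, so nothing is read from that count. In this fit PILS7 had log2 fold changes of -0.20 in LsCv versus LsCK, -1.45 in LsSq versus LsCK and 1.26 in LsCv versus LsSq. Across tested clusters, the replicate differences of the groups had a Pearson's r of 0.163 to 0.241. No label says that a number marks a shared batch, and with 2 numbers these correlations do not settle a pairing.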
